A study of Mus musculus with 6 samples.

Results

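The transcription factor NRF2, its partners and 4 of its textbook targets were followed in livers of mice with and without *Fmo5*. The genes were chosen by symbol: *Nfe2l2*, which encodes NRF2, its inhibitor *Keap1*, the MAF genes *Maf*, *Mafg* and *Mafk*, the competing repressor *Bach1*, and the targets *Nqo1*, *Hmox1*, *Srxn1* and *Txnrd1*. All 10 were among the 54446 genes listed, and all 10 passed the filter on low counts, as did 16734 genes in all.

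RNA was sequenced from the livers of 3 WT mice and 3 *Fmo5*-/- mice, with 1 library of 75-base single reads per mouse. The mice were all 32-week-old males on a C57BL/6 background (C57BL/6J in the study's methods), kept on standard chow, and no treatment is given. The *Fmo5*-/- mice carried the disruption of flavin-containing monooxygenase 5 in the whole animal, so that effects of its loss from the liver and from other tissues cannot be told apart. The question was how the loss of FMO5 alters liver gene expression, here that of the NRF2 system.

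NRF2 is the main activator of the antioxidant response. In unstressed cells KEAP1 binds newly made NRF2 and presents it to a ubiquitin ligase, so that NRF2 is degraded. Electrophiles and oxidants modify cysteines of KEAP1, and the NRF2 that then accumulates enters the nucleus, pairs with a small MAF protein and binds antioxidant response elements (AREs) near genes of detoxification, glutathione and thioredoxin metabolism. BACH1 pairs with the same small MAF proteins, occupies the same elements as a repressor and leaves them when it binds haem. NRF2 is thus controlled largely at the level of the protein, which an RNA measurement does not see.

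Promoters are shown for 4 of the 5 members whose RefSeq windows held a match, chosen to stand for different roles, *Nfe2l2* itself, the small MAF gene *Mafk*, and the targets *Srxn1* and *Txnrd1*. Each line gives the 250 bases before a RefSeq start site (GRCm38), 5′ to 3′ on the strand of the gene, and capitals mark letters that match TGACNNNGC, TGAGNNNGC or TGANTCAGC on either strand. The first is the core of the ARE, the second a form of it that many genes carry, and the last a form of the element that MAF proteins bind, which overlaps the others in part. The regions are chr2:75704664-75704913 (minus strand) for *Nfe2l2*, chr5:139791286-139791535 (plus strand) for *Mafk*, chr2:152105274-152105523 (plus strand) for *Srxn1* and chr10:82858956-82859205 (plus strand) for the second of 3 annotated starts of *Txnrd1*.
Nfe2l2: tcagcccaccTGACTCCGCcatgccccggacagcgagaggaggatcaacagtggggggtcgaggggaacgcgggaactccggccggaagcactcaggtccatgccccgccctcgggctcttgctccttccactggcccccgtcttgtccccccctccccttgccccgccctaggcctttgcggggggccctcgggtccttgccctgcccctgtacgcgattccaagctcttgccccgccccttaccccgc
Mafk: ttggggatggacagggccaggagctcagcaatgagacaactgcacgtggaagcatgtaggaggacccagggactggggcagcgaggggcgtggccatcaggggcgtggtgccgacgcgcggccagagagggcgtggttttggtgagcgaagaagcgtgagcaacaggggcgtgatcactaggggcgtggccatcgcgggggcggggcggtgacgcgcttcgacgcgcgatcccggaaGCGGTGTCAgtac
Srxn1: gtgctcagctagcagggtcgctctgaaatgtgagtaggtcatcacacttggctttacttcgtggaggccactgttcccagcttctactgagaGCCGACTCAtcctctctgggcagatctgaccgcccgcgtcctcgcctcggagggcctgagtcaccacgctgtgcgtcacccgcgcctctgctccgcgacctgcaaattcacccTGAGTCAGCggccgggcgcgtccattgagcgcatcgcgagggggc
Txnrd1: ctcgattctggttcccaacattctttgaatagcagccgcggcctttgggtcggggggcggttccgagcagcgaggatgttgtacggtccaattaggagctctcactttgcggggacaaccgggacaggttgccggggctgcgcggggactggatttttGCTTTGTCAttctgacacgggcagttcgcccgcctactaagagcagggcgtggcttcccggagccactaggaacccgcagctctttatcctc

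The match in *Nfe2l2* began 240 bases before the start site and read TGACTCCGC. The match in *Mafk* lay 13 bases before the start on the opposite strand. *Srxn1* held matches 158 and 45 bases before its start, and the nearer, TGAGTCAGC, fitted both the second and the last motif. A further match of *Srxn1* began 28 bases after the start and is not printed. The windows searched ran from 250 bases before to 50 bases after a start, 300 bases in all, and were given for 8 of the 10 members with 10 starts. *Mafg* held 1 match, 222 bases before its start, and *Keap1*, *Bach1*, *Nqo1* and the other starts of *Txnrd1* held none of these letters in this window. Of 32851 windows of the same length over the genome, 12.4% held TGACNNNGC, 17.6% TGAGNNNGC, 1.19% TGANTCAGC and 28.1% at least 1 of the 3.

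The genotypes were first checked on the targeted gene. Normalized counts of *Fmo5* were 39808, 37405 and 30240 in WT livers and 1071, 1102 and 1194 in *Fmo5*-/- livers, a log2 fold change of -5.00 (edgeR quasi-likelihood test, adjusted p = 2.79e-07). Normalized counts are reads of a gene scaled to a common library size. The libraries held 44886286 to 52338675 counts on genes, 66.2% to 69.2% of their reads. Some other library values were apart by genotype. Unmapped reads made up 9.72% to 10.1% in WT and 9.1% to 9.2% in *Fmo5*-/- libraries, reads mapped to several places 11.8% to 13.1% and 10.4% to 11.5%, and reads in more than 1 gene 3.52% to 3.62% and 3.72% to 3.98%. The TMM scaling factors were 0.956 to 0.9747 in WT and 1.00 to 1.08 in *Fmo5*-/- libraries. The part of these values in the genotype differences was not tested. CPM are reads of a gene per 1000000 reads on genes, after the same scaling. Hepatocyte markers were abundant in all 6 livers, and their summed level overlapped between the genotypes, at 110700 to 141600 CPM in WT and 113000 to 138600 in *Fmo5*-/- mice. *Alb* was the top gene of this sum. Of the 8 markers 7 were fitted lower in *Fmo5*-/- mice, beside 49.2% of all genes tested. Without overlap was 1, lower, as were 13.5% of all genes tested. EdgeR called 0 of the 8. DESeq2, run as an alternative, called 1 lower (adjusted p under 0.05), beside 4.21% of genes with an adjusted p. Normalized counts of *Nnt*, a gene that is defective in some C57BL/6 colonies, were 25.7 to 45.5 in WT and 31.2 to 54.0 in *Fmo5*-/- mice and overlapped. None of the members lies on chromosome 3, which carries *Fmo5*. The labels do not say how the mice were related, and p-values measure the spread between these 6 livers only.

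Of the 10 members, 1 passed the test across all genes, *Maf*, which was higher in *Fmo5*-/- mice. For comparison, 1.37% of the 16734 genes tested passed (adjusted p under 0.05), 0.675% with higher and 0.693% with lower expression in *Fmo5*-/- mice. The values of the genotypes did not overlap for 4 members, *Nfe2l2* and *Bach1* with lower and *Maf* and *Mafk* with higher values in *Fmo5*-/- mice. The same was true of 27.4% of all genes tested, 13.5% lower and 13.9% higher. With DESeq2 these 4 members passed, where 8.96% of the genes with an adjusted p passed. An unadjusted p under 0.05 in edgeR was also found for these 4, beside 21.8% of all genes, 10.2% lower and 11.6% higher. Among genes whose normalized counts averaged 500 or more, 9 members included, 1.61% passed with edgeR and 9.54% with DESeq2, and the genotypes did not overlap for 9.39% with higher and 21.9% with lower values in *Fmo5*-/- mice. The 4 targets neither passed either test nor separated by genotype. The median log2 fold change over the 10 members was 0.021 and over all genes tested 0.0058. In whole liver, a change in the number of cells of a type and a change in RNA per cell cannot be told apart.

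**Figure D1:**
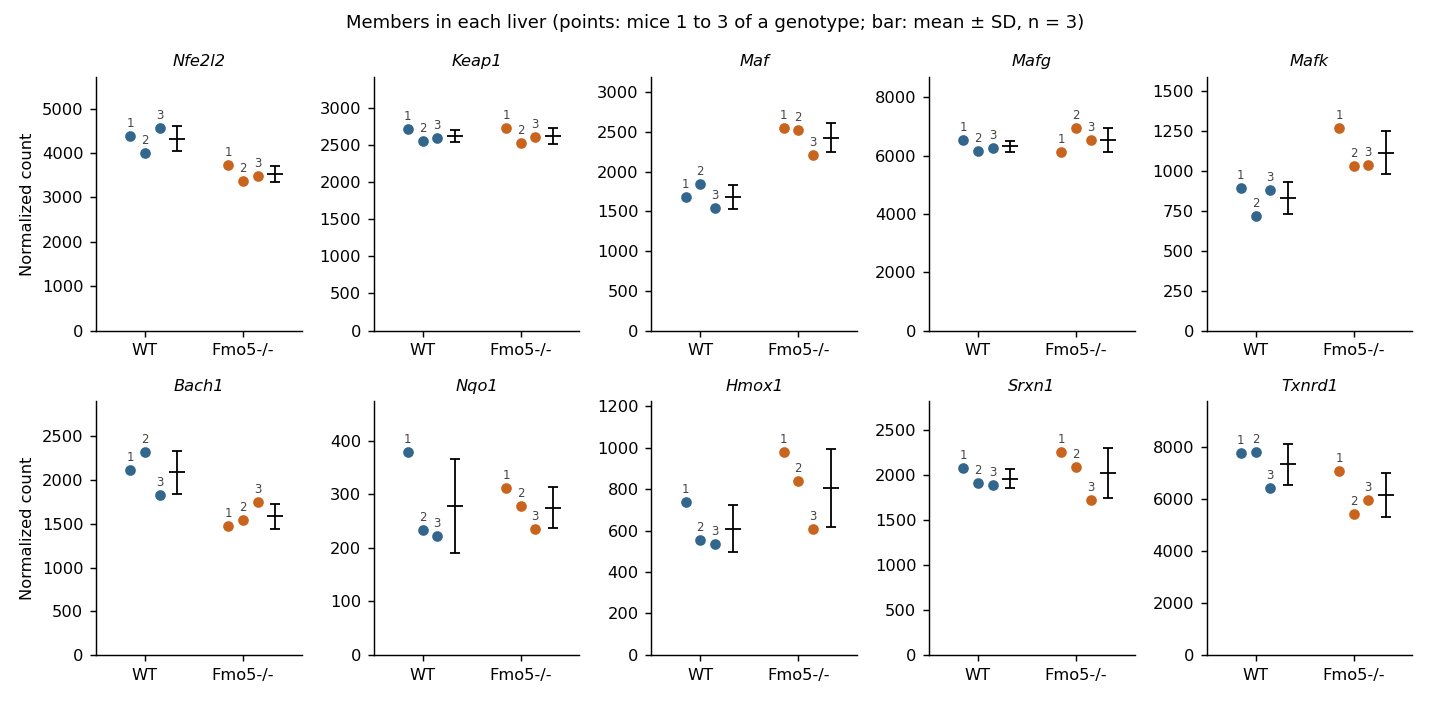
Normalized counts of the 10 members (y axis, from 0) in each liver, with mice 1 to 3 of WT (blue) and *Fmo5*-/- (orange) as points and the mean ± SD (n = 3) as bars. The genotypes are apart for *Nfe2l2* and *Bach1*, which are lower in *Fmo5*-/- mice, and for *Maf* and *Mafk*, which are higher, and overlap for the other 6 members.

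*Nfe2l2* (ENSMUSG00000015839.6, chr2:75675513-75704641, minus strand) gave normalized counts of 4394, 4009 and 4569 in WT livers and 3727, 3373 and 3474 in *Fmo5*-/- livers. Each *Fmo5*-/- value lay below each WT value, and the lowest WT mouse was nearest to the highest *Fmo5*-/- mouse. The means were 4324 ± 286 and 3525 ± 182.3 (SD, n = 3 each), a difference of -18.5%. The log2 fold change was -0.29 (standard error 0.084, 95% confidence interval -0.48 to -0.11), which did not pass over all genes with edgeR (adjusted p = 0.0938) and passed with DESeq2 (adjusted p = 0.0330). Leaving out 1 library at a time gave log2 fold changes of -0.34 to -0.25, with edgeR adjusted p of 0.136 to 0.258. When only genes with a mean of 500 or more were fitted, it was -0.23 (edgeR adjusted p = 0.141). Without the filter on low counts it was -0.31 (edgeR adjusted p = 0.0399).

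*Keap1* (ENSMUSG00000003308.15, chr9:21229730-21239361, minus strand) gave normalized counts of 2712, 2549 and 2592 in WT livers and 2729, 2519 and 2599 in *Fmo5*-/- livers. The ranges almost coincided, and *Keap1* had the smallest fold change of the 10 members. The means were 2618 ± 84.7 and 2615 ± 106 (SD, n = 3 each), and the log2 fold change came to -0.0013 (standard error 0.074, edgeR adjusted p = 0.994). The 95% confidence interval ran from -0.17 to 0.17, so a difference of that size in either direction could not be told from 0 with these 6 livers. Of the exon bases of *Keap1*, 10.9% also belong to the antisense gene *Gm16754*. The counts carry no strand, and a read that lies in exons of both genes is counted for neither.

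The number of *Nfe2l2* counts per *Keap1* count needs no scaling between libraries. This ratio was 1.62, 1.57 and 1.76 in WT livers and 1.37, 1.34 and 1.34 in *Fmo5*-/- livers. The genotypes did not overlap, and the *Fmo5*-/- values lay closer together than the WT values (1.65 ± 0.099 against 1.35 ± 0.016, SD, n = 3 each). The pairs for this and the other 4 ratios were picked after the values had been seen, so the ratios restate the members' counts and are a description with no test.

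Small MAF proteins are the obligate partners of NRF2 and BACH1. MAFG and MAFK are small MAFs and have no activation domain of their own, so that their effect depends on the partner, and pairs of small MAFs repress. *Maf* encodes c-MAF, a large MAF with an activation domain that also binds AREs and is expressed in macrophages and endothelium of the liver as well as in other tissues. *Maf* (ENSMUSG00000055435.6, chr8:115682942-115707794, minus strand) gave normalized counts of 1679, 1843 and 1542 in WT livers and 2553, 2524 and 2217 in *Fmo5*-/- livers. Every *Fmo5*-/- liver was above every WT liver, with *Fmo5*-/- mouse 3 nearest to the WT range. The means were 1688 ± 151 and 2431 ± 186 (SD, n = 3 each), a rise of 44.1%. The log2 fold change was 0.53 (standard error 0.095, 95% confidence interval 0.31 to 0.74, edgeR adjusted p = 0.0430), and in DESeq2 the adjusted p was 8.02e-04. By p-value *Maf* ranked 129 among the genes tested. The log2 fold change stayed between 0.47 and 0.60 when 1 library was left out. The adjusted p moved to 0.125 without WT mouse 1, 0.0706 without WT mouse 3, 0.123 without *Fmo5*-/- mouse 1 and 0.0960 without *Fmo5*-/- mouse 2, and the call was kept without WT mouse 2 or *Fmo5*-/- mouse 3. Of the exon bases of *Maf*, 5.34% are shared with the antisense gene *Gm15655*. The summed level of 14 markers of Kupffer cells, the liver's resident macrophages, was also higher in every *Fmo5*-/- liver (479.8 to 843.5 CPM) than in every WT liver (313.3 to 379.1 CPM), and its part in the level of *Maf* was not tested.

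*Mafk* (ENSMUSG00000018143.10, chr5:139791513-139802653, plus strand) gave normalized counts of 893, 715 and 880 in WT livers and 1267, 1029 and 1037 in *Fmo5*-/- livers. The genotypes did not overlap, and *Fmo5*-/- mouse 1 was the highest of the 6. The means were 829 ± 99.1 and 1111 ± 135 (SD, n = 3 each), and the log2 fold change came to 0.42 (standard error 0.12, 95% confidence interval 0.15 to 0.69). The adjusted p was 0.0919 in edgeR, which did not pass, and 0.0494 in DESeq2. *Mafg* (ENSMUSG00000051510.13, chr11:120625117-120633600, minus strand) gave normalized counts of 6548, 6161 and 6252 in WT livers and 6132, 6958 and 6539 in *Fmo5*-/- livers. These ranges overlapped, and the log2 fold change came to 0.050 (95% confidence interval -0.14 to 0.24, edgeR adjusted p = 0.775).

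Set against *Mafg* in the same library, the counts of *Mafk* were 0.136, 0.116 and 0.141 in WT livers and 0.207, 0.148 and 0.159 in *Fmo5*-/- livers. The counts of *Maf* per *Mafg* count were 0.256, 0.299 and 0.247 in WT livers and 0.416, 0.363 and 0.339 in *Fmo5*-/- livers. Both ratios were higher in every *Fmo5*-/- mouse than in every WT mouse, with *Mafg* itself overlapping between the genotypes. The counts of *Maf* per *Mafk* count overlapped, at 1.75 to 2.58 in WT and 2.02 to 2.45 in *Fmo5*-/- mice.

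*Bach1* (ENSMUSG00000025612.5, chr16:87698945-87733346, plus strand) gave normalized counts of 2116, 2320 and 1829 in WT livers and 1473, 1538 and 1749 in *Fmo5*-/- livers. All *Fmo5*-/- values were below all WT values, by a narrow margin between WT mouse 3 and *Fmo5*-/- mouse 3. The means were 2088 ± 247 and 1587 ± 145 (SD, n = 3 each), a difference of -24.0%. The log2 fold change was -0.40 (standard error 0.11, 95% confidence interval -0.64 to -0.15), with an adjusted p of 0.0852 in edgeR and 0.0284 in DESeq2. The transcripts of the activator and of the repressor were thus both lower on average in *Fmo5*-/- mice, and the counts of *Nfe2l2* per *Bach1* count overlapped, at 2.08, 1.73 and 2.50 in WT livers and 2.53, 2.19 and 1.99 in *Fmo5*-/- livers.

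**Figure D2:**
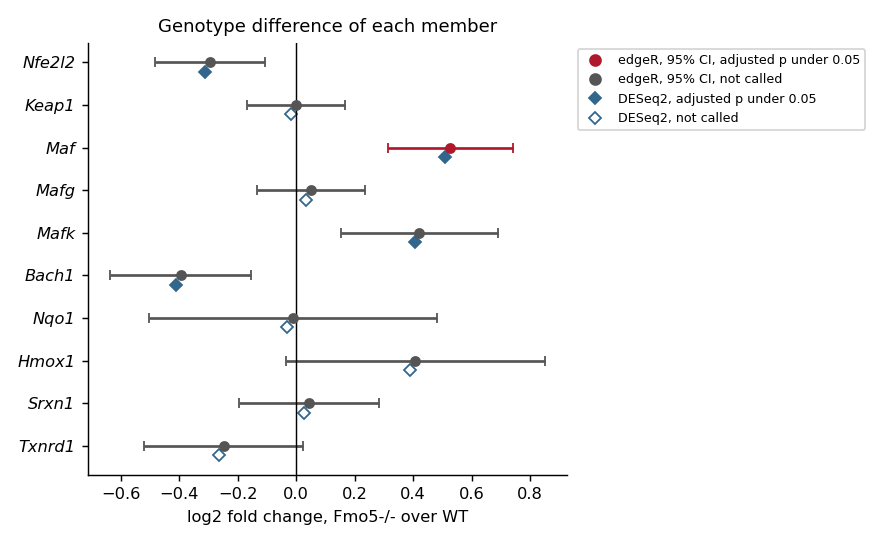
Log2 fold change, *Fmo5*-/- over WT, of each member from edgeR (circles, with 95% confidence intervals as bars) and DESeq2 (diamonds). The edgeR interval of *Nfe2l2* and *Bach1* lies below 0 and that of *Maf* and *Mafk* above it, only *Maf* passes over all genes with edgeR (red), and the intervals of the 4 targets include 0.

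The targets were *Hmox1*, which encodes the haem oxygenase that opens the haem ring, *Nqo1*, a quinone reductase, *Srxn1*, the sulfiredoxin that repairs overoxidized peroxiredoxins, and *Txnrd1*, the cytosolic thioredoxin reductase. *Hmox1* (ENSMUSG00000005413.8, chr8:75093621-75100589, plus strand) gave normalized counts of 738, 556 and 534 in WT livers and 978, 839 and 606 in *Fmo5*-/- livers. *Fmo5*-/- mice 1 and 2 lay above all WT mice, and *Fmo5*-/- mouse 3 lay inside the WT range. The means were 609 ± 112 and 808 ± 188 (SD, n = 3 each), and the log2 fold change came to 0.41 (95% confidence interval -0.036 to 0.85, edgeR adjusted p = 0.266, DESeq2 adjusted p = 0.218). Without the filter on low counts edgeR called *Hmox1*, with an adjusted p of 0.0202.

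*Txnrd1* (ENSMUSG00000020250.10, chr10:82833951-82897712, plus strand) gave normalized counts of 7765, 7800 and 6421 in WT livers and 7092, 5433 and 5977 in *Fmo5*-/- livers. *Fmo5*-/- mice 2 and 3 lay below all WT mice, and *Fmo5*-/- mouse 1 lay above WT mouse 3. The log2 fold change was -0.25 (95% confidence interval -0.52 to 0.024), which did not pass in edgeR (adjusted p = 0.271) or DESeq2 (adjusted p = 0.240).

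*Srxn1* (ENSMUSG00000032802.8, chr2:152105516-152111376, plus strand) gave normalized counts of 2075, 1906 and 1889 in WT livers and 2249, 2084 and 1713 in *Fmo5*-/- livers. The *Fmo5*-/- values reached both above and below the WT range. The log2 fold change was 0.043 (95% confidence interval -0.20 to 0.28, edgeR adjusted p = 0.857). *Nqo1* (ENSMUSG00000003849.8, chr8:107388225-107403206, minus strand) gave normalized counts of 379, 233 and 222 in WT livers and 313, 278 and 236 in *Fmo5*-/- livers. All *Fmo5*-/- values lay inside the WT range, and WT mouse 1 was the highest of the 6. The means were 278 ± 87.7 and 276 ± 38.8 (SD, n = 3 each), and the log2 fold change came to -0.013 (95% confidence interval -0.51 to 0.48, edgeR adjusted p = 0.980). This interval was the widest of the 10 members, and without WT mouse 1 the log2 fold change of *Nqo1* was 0.28 (edgeR adjusted p = 0.484).

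*Nqo1* was the only member with a mean normalized count under 500, the limit below which the study set genes aside, with 209 to 358 raw reads per library. Its coefficient of variation was 31.5% among WT mice, of which WT mouse 1 stood apart from the other two, and 14.1% among *Fmo5*-/- mice, where counting alone gives 6.19% and 5.84%. *Hmox1* varied by 18.4% among WT mice and 23.3% among *Fmo5*-/- mice. *Keap1* varied by 3.24% and 4.05%, and *Nfe2l2* by 6.62% and 5.17%. *Nqo1*, *Hmox1* and *Srxn1* put the mice in the same order. In each genotype the liver that was highest for 1 of these targets was highest for the other two, and the same held for the lowest. *Txnrd1* shared this order in neither genotype.

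Each of 3 targets has isoenzymes that lie outside the list of members. The isoenzymes *Hmox2*, *Nqo2*, *Txnrd2* and *Txnrd3* were measured beside them, and 0 of 4 passed with edgeR or with DESeq2. At an unadjusted p under 0.05 was 1 of 4, beside 21.8% of all genes tested. *Txnrd2*, the mitochondrial thioredoxin reductase, gave normalized counts of 2002, 1860 and 1778 in WT livers and 1512, 1542 and 1698 in *Fmo5*-/- livers. Its genotypes did not overlap, as for 27.4% of all genes tested, and the log2 fold change came to -0.25 (edgeR adjusted p = 0.135). For the constitutive haem oxygenase *Hmox2* the log2 fold change was 0.092 (95% confidence interval -0.097 to 0.28, edgeR adjusted p = 0.568). It was -0.12 for *Nqo2* (edgeR adjusted p = 0.545) and -0.026 for *Txnrd3* (edgeR adjusted p = 0.929).

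Levels of different genes were compared as CPM per kilobase of exon. Over all 6 livers *Mafg* had the highest mean level, 23.5 CPM per kilobase, which ranked 1599 among 34187 genes with a length and a count, and *Nqo1* the lowest, 3.65 CPM per kilobase. The order of the levels differed between the genotypes. In WT livers the mean levels in CPM per kilobase ran from *Nfe2l2* at 23.3, *Mafg* at 23.1, *Txnrd1* at 21.2, *Srxn1* at 14.2 and *Keap1* at 11.4 to *Hmox1* at 7.13, *Bach1* at 6.93, *Mafk* at 4.36, *Maf* at 4.198 and *Nqo1* at 3.67. In *Fmo5*-/- livers they ran from *Mafg* at 23.9, *Nfe2l2* at 19.03, *Txnrd1* at 17.8, *Srxn1* at 14.6 and *Keap1* at 11.4 to *Hmox1* at 9.45, *Maf* at 6.05, *Mafk* at 5.84, *Bach1* at 5.26 and *Nqo1* at 3.64. *Bach1* thus lay above *Maf* and *Mafk* in every WT liver, and in *Fmo5*-/- livers its range overlapped theirs, with the lower mean but the higher level in mouse 3. *Mafg* and *Nfe2l2* overlapped in WT livers, and *Mafg* lay above *Nfe2l2* in every *Fmo5*-/- liver. Among the other neighbours, the ranges in WT livers were apart for *Txnrd1* and *Srxn1*, *Srxn1* and *Keap1*, and *Keap1* and *Hmox1*. In *Fmo5*-/- livers they were apart for *Srxn1* and *Keap1*, *Hmox1* and *Maf*, and *Bach1* and *Nqo1*, and all remaining neighbours overlapped. The level depends on the length used. With the length of the longest transcript in place of all exons, over the 6 livers *Txnrd1* came first at 38.2, *Nfe2l2* next at 32.5 and *Mafg* at 26.8 CPM per kilobase. *Keap1* then came to 14.8, above *Srxn1* at 14.5, the reverse of their order with all exons. *Bach1* came to 6.419, below *Maf* at 6.64 and *Mafk* at 6.420. The higher level of *Bach1* in *Fmo5*-/- mouse 3 held only with the length of all exons. Under either length *Nqo1* was the lowest.

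**Figure D3:**
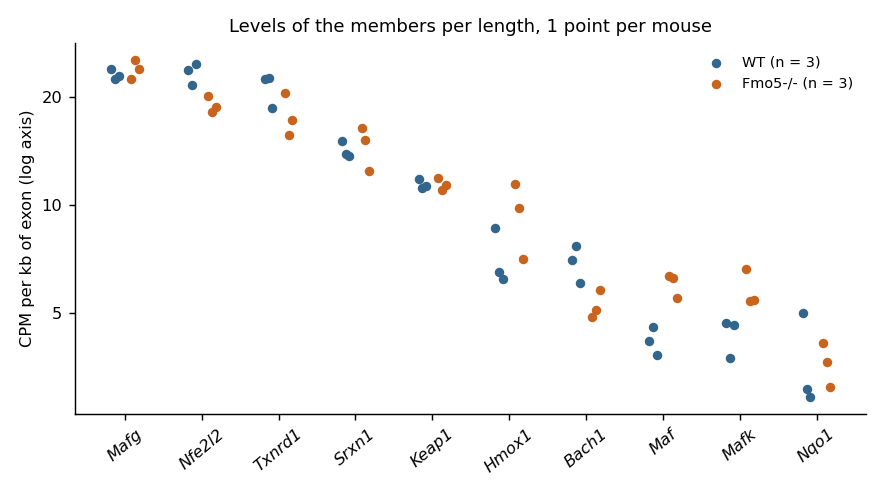
Level of each member in CPM per kilobase of exon (y axis, log scale), 1 point per mouse, ordered by the mean over the 6 livers. Mean levels run from 23.5 for *Mafg* to 3.65 for *Nqo1*, and *Bach1* lies above *Maf* and *Mafk* in all 3 WT livers and in 1 of 3 *Fmo5*-/- livers.

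Liver holds several cell types, and *Maf* and *Hmox1* are known to be expressed by Kupffer cells, which take up old red cells and break down haem. The summed level of 14 Kupffer cell markers was 355.2, 379.1 and 313.3 CPM in WT livers and 811.7, 843.5 and 479.8 CPM in *Fmo5*-/- livers. The genotypes did not overlap, and *Fmo5*-/- mouse 3 was nearest to the WT mice here. It was also the lowest *Fmo5*-/- mouse for *Maf* and *Hmox1*, and likewise for *Nqo1* and *Srxn1*. The marker sum was highest in *Fmo5*-/- mouse 2, and these members were highest among *Fmo5*-/- mice in mouse 1. The mean sum was 2.04 times as high in *Fmo5*-/- mice (two-sided exact permutation test, p = 0.1, the smallest that 3 mice against 3 allow). All 14 markers were fitted higher, 12 without overlap, and none was at 0 in these livers. Of the 14, edgeR called 1 and DESeq2 12. Among all genes tested 13.9% were apart with higher values in *Fmo5*-/- mice, and edgeR called 0.675% higher. DESeq2 called 4.75% of the genes with an adjusted p higher. The marker called by edgeR was *Clec4f*, a lectin found on Kupffer cells, with a log2 fold change of 0.70 (adjusted p = 0.0275). This call was kept without WT mouse 3 or *Fmo5*-/- mouse 3, and the adjusted p was 0.05004 to 0.102 without WT mouse 1, WT mouse 2, *Fmo5*-/- mouse 1 or *Fmo5*-/- mouse 2. *Marco* had the largest log2 fold change, 2.24 (adjusted p = 0.212 in edgeR and 0.0471 in DESeq2), and *Mrc1* the smallest, 0.015. Without *Fmo5*-/- mouse 3, edgeR called *Marco* too, with a log2 fold change of 2.72 (adjusted p = 0.00460). The part of these markers in the levels of *Maf*, *Mafk*, *Bach1* and *Hmox1* was not tested.

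**Figure D4:**
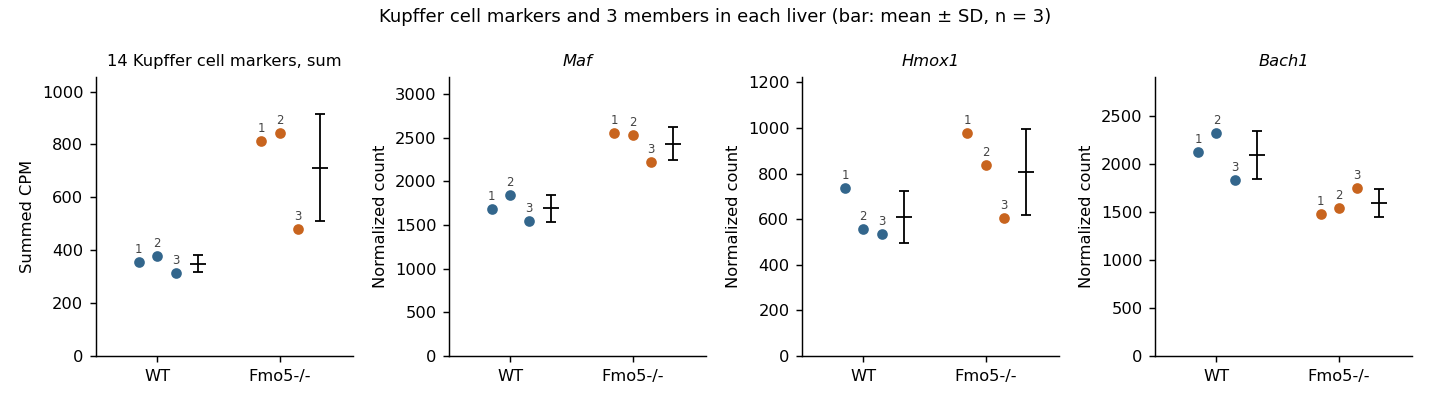
Summed level of 14 Kupffer cell markers in CPM (first panel, y axis from 0) and normalized counts of *Maf*, *Hmox1* and *Bach1* in each liver, with mice as points and the mean ± SD (n = 3) as bars. The marker sum is 313.3 to 379.1 CPM in WT and 479.8 to 843.5 CPM in *Fmo5*-/- mice, and mouse 3 is the lowest of the *Fmo5*-/- mice for the markers, *Maf* and *Hmox1* and the highest for *Bach1*.

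Markers of sinusoidal endothelium, the other liver cells known for *Maf*, summed to 262.6 to 301.5 CPM in WT and 260.2 to 273.5 CPM in *Fmo5*-/- mice and overlapped. Of these 10 markers, 4 were apart by genotype, 3 lower (*Oit3*, *Ptprb* and *Bmp2*) and 1 higher (*Stab2*) in *Fmo5*-/- mice. Of the 10, 0 were called by edgeR and 1, *Bmp2*, by DESeq2, with 4 at an unadjusted p under 0.05 in edgeR. Among all genes tested 27.4% were apart, 13.5% lower and 13.9% higher. EdgeR called 1.37% of them, and 21.8% had an unadjusted p under 0.05. DESeq2 called 8.96% of the genes with an adjusted p. The sums for stellate cells, cholangiocytes and erythroid cells overlapped also. So did that for 8 markers of perivenous hepatocytes, of which *Cyp2e1* was the top gene. *Cyp2e1* is also 1 of the hepatocyte markers, and was fitted lower (log2 fold change -0.057). The other 7 of the 8 were fitted higher (median log2 fold change of the 8, 0.26). Thus 12.5% were fitted lower, beside 49.2% of all genes tested. Of the 8, 2 were without overlap and higher, beside 13.9% of all genes tested with higher values. EdgeR called 1 higher, beside 0.675% of all genes tested. It was *Cyp1a2*, a cytochrome P450, at 0.65 (adjusted p = 0.0208). That call was lost without WT mouse 1 (adjusted p = 0.0855) or *Fmo5*-/- mouse 1 (adjusted p = 0.0778). The sums for lymphocytes, 4.69 to 7.81 CPM in WT and 8.59 to 23.9 CPM in *Fmo5*-/- mice, and for neutrophils, 0.838 to 2.41 and 2.54 to 5.44 CPM, did not overlap. Since tissue was taken over some hours of the morning, 13 clock genes were summed as well. The sums overlapped, at 373.3 to 522.9 CPM in WT and 319.9 to 417.3 CPM in *Fmo5*-/- mice. The clock genes did not move together between mice. In WT mouse 2 some were at their lowest among WT livers and others at their highest. Such shifts can cancel in a sum, so its overlap cannot show that the genotypes were alike in time of day. With edgeR or DESeq2 0 of 13 passed, with 1 at an unadjusted p under 0.05 in edgeR. Of the 13, 11 were fitted lower in *Fmo5*-/- mice, or 84.6%, beside 49.2% of all genes tested and 64% of those with a mean of 500 or more. The median log2 fold change of the 13 was -0.28, beside 0.0058 over all genes tested and -0.062 over those with a mean of 500 or more. The part of the clock genes in the levels of the members was not tested.

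Genes with the most similar pattern were sought for *Nfe2l2* and *Maf* by the Pearson correlation of log2 normalized counts over the 6 livers, among 7818 other genes with a mean of 500 or more. The r values and the fold changes of these genes are a description with no test, since the genes were chosen on the same 6 livers, the points form 2 genotype groups and share their library scaling. For *Nfe2l2* they were *Dusp16*, a phosphatase of MAP kinases (r = 0.9985, log2 fold change -0.26), and *Csad*, an enzyme of taurine synthesis (r = 0.9932, log2 fold change -0.83). For *Maf* they were *Cyp2c55*, a cytochrome P450 (r = 0.9906, log2 fold change 0.81), *Dmpk*, a protein kinase (r = 0.9893, log2 fold change 0.94), and *Grk2*, a kinase of G protein-coupled receptors (r = 0.9891, log2 fold change 0.32).

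The other genes of the pathway were taken from a list of 75, of which 71 passed the filter on low counts (not *Slc7a11*, *Ggt1*, *Mgst2* or *Gpx2*). Of these 71, 1 gene was called higher and 1 lower in *Fmo5*-/- mice by edgeR. DESeq2 called 1 higher and 9 lower, where 4.75% and 4.21% of genes with an adjusted p were called higher and lower. Among the 7819 genes tested with a mean of 500 or more DESeq2 called 219 higher and 528 lower, or 2.8% and 6.75%. The genotypes did not overlap for 5 genes with higher and 15 with lower values in *Fmo5*-/- mice, beside 13.9% and 13.5% of all genes and 9.39% and 21.9% of those with a mean of 500 or more. Fitted log2 fold changes were below 0 for 48 of 71 genes, or 67.6%. The same held for 49.2% of all genes tested and for 64% of the 7819 with a mean of 500 or more. The median was -0.12 over the list, 0.0058 over all genes tested and -0.062 over those with a mean of 500 or more.

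The gene called lower was *Ephx1*, the microsomal epoxide hydrolase of detoxification. Its normalized counts were 24822, 21661 and 21608 in WT livers and 16632, 14629 and 14850 in *Fmo5*-/- livers, without overlap. *Ephx1* fell by 0.56 on the log2 scale (standard error 0.098, edgeR adjusted p = 0.0378). The gene called higher was *Gstm3*, a glutathione transferase of the mu class, with normalized counts of 2161, 1552 and 1851 in WT livers and 3314, 3899 and 2804 in *Fmo5*-/- livers. *Gstm3* rose by 0.85 on the log2 scale (standard error 0.15, edgeR adjusted p = 0.0430). Genes of this class are similar in sequence and lie side by side. Reads that fit several of them were not counted, so their counts are less certain. Positions were looked up for the members only. Whether *Gstm3* or other pathway genes lie on chromosome 3, as *Fmo5* does, was not examined, and a part of such linkage was not tested. With 1 library left out at a time, *Ephx1* kept its call without *Fmo5*-/- mouse 3 only and *Gstm3* without WT mouse 1 or *Fmo5*-/- mouse 3. The adjusted p without each of the other libraries was 0.0544 to 0.124 for *Ephx1* and 0.0771 to 0.130 for *Gstm3*.

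Next by p-value among the genes with lower values were *Idh1*, which makes NADPH in the cytosol, at a log2 fold change of -0.47 (edgeR adjusted p = 0.0564), and *Mgst1*, a microsomal glutathione transferase, at -0.44 (edgeR adjusted p = 0.0677). Neither passed with edgeR, and both passed with DESeq2 (adjusted p = 8.20e-04 and 0.00102). Among those with higher values they were *Gstm2* at 0.36 (edgeR adjusted p = 0.0985) and *Gstm6* at 0.31 (edgeR adjusted p = 0.148), both of the mu class like *Gstm3*, and neither passed with edgeR or DESeq2.

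By role, 4 genes listed under glutathione synthesis and cystine import were tested, without the cystine importer *Slc7a11*, which did not pass the filter. All 4 were fitted lower (median log2 fold change -0.30), with 0 called by edgeR. Of the 4, 3 had an unadjusted p under 0.05 (21.8% of all genes tested) and 2 were called by DESeq2 (8.96% of all genes with an adjusted p). The 6 genes of NADPH regeneration had a median of -0.23, with 5 fitted lower and 1 higher, 3 lower at an unadjusted p under 0.05 and 2 called lower by DESeq2. The 16 genes of detoxification and export had a median of -0.21, with 12 fitted lower, of which edgeR called 1, *Ephx1*, and DESeq2 3. The 13 glutathione transferases and peroxidases had a median of -0.15, with 7 fitted lower and 6 higher, of which edgeR called 1 higher, *Gstm3*, and DESeq2 1 higher and 1 lower. The 3 genes of thioredoxin and peroxiredoxin had a median of -0.13, all fitted lower, with 1 called by DESeq2, and the 7 genes of haem and iron a median of -0.082, with 5 fitted lower, 1 at an unadjusted p under 0.05 and 0 called by edgeR or DESeq2. The 10 genes of NRF2 turnover, among them the ligase subunit *Cul3*, had a median of -0.086, the 6 other CNC and MAF factors 0.10 and the 6 cofactors 0.097, and none of the genes of these last roles was called by edgeR or DESeq2. At an unadjusted p under 0.05 were 3 of 10 genes of turnover and 1 of 6 cofactors, beside 21.8% of all genes tested. No test was run of the difference between roles.

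**Figure D5:**
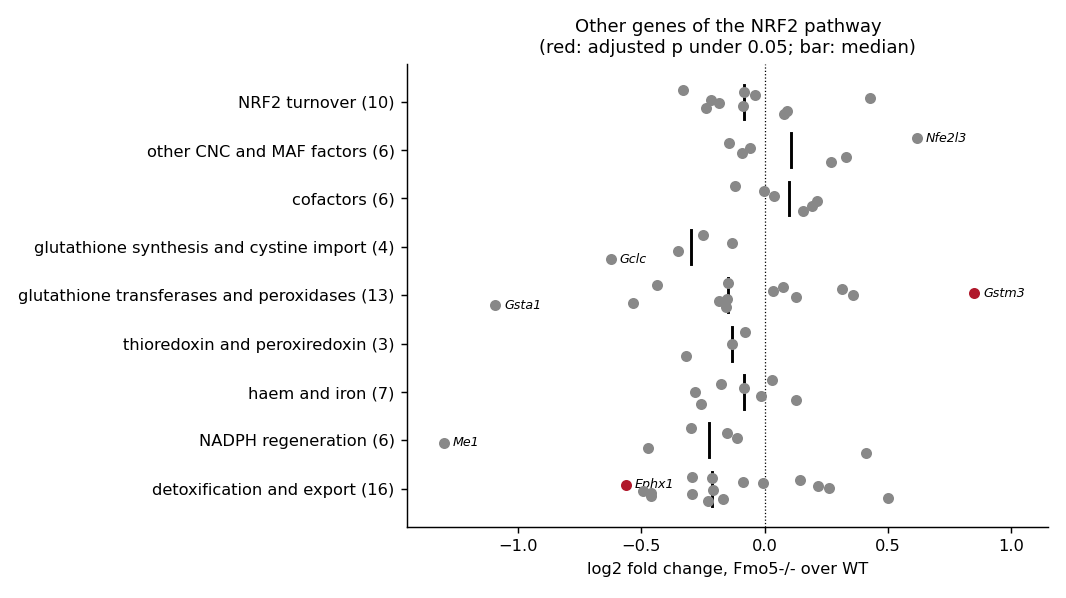
Log2 fold change, *Fmo5*-/- over WT, of the 71 tested genes of the pathway list (x axis), by role with the number of genes in brackets. Each point is 1 gene, red where edgeR called it, and bars are medians, which lie between -0.30 for glutathione synthesis and 0.10 for the other CNC and MAF factors.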

How the data were processed

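The transcriptome of 6 livers was measured by RNA-seq, 3 per genotype. Per the labels and the study's methods, the authors demultiplexed the reads with bcl2fastq, clipped adapters, mapped to mm10 with STAR and counted the reads that lie in exons of 1 gene. They deposited raw counts per library and 1 table whose signal columns hold those counts divided by 1 size factor per library. The other columns of that table hold the authors' own DESeq2 comparison and were not used. Every column of per-sample values was mapped to a sample. The ratio of count to deposited signal was checked and did not vary between genes within a library. The annotation release that the authors used is not given in the sources used here.

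Members were taken by symbol from the deposited table, and their counts by Ensembl identifier. Counts of both strands were kept by filterByExpr (minimum count 10), given TMM scaling factors and tested with edgeR 4.0.16 (quasi-likelihood, robust fit) in R 4.3.3, with Benjamini-Hochberg adjustment over 16734 genes. A gene was called at an adjusted p under 0.05. DESeq2 was run as an alternative, in version 1.42.0. The study used another version of it. The steps were tested on simulated data. A count of 0 allows up to 3 counts, or 0.0564 to 0.0686 CPM per library, for counting error only.

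Named genes were the members, *Fmo5*, *Nnt*, 4 isoenzymes, the pathway genes called and the 3 of each direction with the smallest p, and the 3 genes most correlated with *Nfe2l2* and with *Maf*. Of these, 1 gene is not reported here. *Clec4f*, *Marco*, *Mrc1*, *Cyp1a2* and the endothelial markers named, and the pairs for the 5 ratios, were picked after their values had been seen. The members and all lists were chosen with earlier results of these data known. Exons and positions came from GENCODE vM21 and promoters from RefSeq, both on GRCm38, the build also called mm10. Exons were found for 54409 genes.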

Additional observations from a re-analysis of the deposited data

How the results depend on the processing

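The count of genes called, 229, became 1395 with DESeq2, 1989 without the filter on low counts and 53 when only genes with a mean of 500 or more were fitted. It ran from 31 (without *Fmo5*-/- mouse 1) to 763 (without *Fmo5*-/- mouse 3) when 1 library was left out. The count of members called, 1, became 4 with DESeq2 and 5 without the filter, and ran from 0 to 1 with a library left out. Of the pathway genes 2 were called, 10 with DESeq2, 16 without the filter and 0 when only genes with a mean of 500 or more were fitted, and 0 to 2 with a library left out. The cause of these shifts was not tested. RLE factors, TMM without the 20 most abundant genes and reads of 1 strand left *Maf* the only member called.

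Among the named genes, the fold change changed sign only for *Keap1*, *Nqo1*, *Srxn1*, *Txnrd3* and *Mrc1*. On the log2 scale *Keap1* stood at 0.063 when only genes with a mean of 500 or more were fitted, and at 0.030, 0.026 and 0.00090 without WT mouse 1, *Fmo5*-/- mouse 2 and *Fmo5*-/- mouse 3. *Nqo1* stood at 0.28 and 0.085 without WT mouse 1 and *Fmo5*-/- mouse 3, and *Srxn1* at -0.044 without *Fmo5*-/- mouse 1. With a library left out, *Keap1* ran from -0.034 to 0.030, *Nqo1* from -0.15 to 0.28 and *Srxn1* from -0.044 to 0.14. *Txnrd3* stood at 0.034 when only genes with a mean of 500 or more were fitted and at 0.0032 with reads of 1 strand, and *Mrc1* at -0.0019 with DESeq2. With a library left out they ran from -0.093 to 0.091 and from -0.055 to 0.095. Fitting only genes with a mean of 500 or more moved the log2 fold changes of these genes by a median of 0.064. The cause of the changes of sign was not tested. *Nqo1* has no value where a mean of 500 was required. With a library left out, *Mafk* stayed between 0.31 and 0.48, *Bach1* between -0.48 and -0.31, *Hmox1* between 0.24 and 0.57 and *Txnrd1* between -0.36 and -0.17. The log2 ratio of the Kupffer cell marker sum, 1.03, stayed between 0.89 and 1.24 with a library left out and was 1.14 with plain library sizes. No paired analysis was possible because the labels give no replicate numbers that the genotypes share.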
